A study of Mus musculus with 8 samples.

Results

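The genes described here form the lymphotoxin and RANK ligand axis, a set of 8 genes. They were chosen by name and not by a rule on their values, although earlier results of these data were known. They are the ligands Lta, Ltb, Tnf, Tnfsf14 and Tnfsf11, the receptors Ltbr and Tnfrsf11a, and the adaptor Traf3. All 8 were found among 22878 gene symbols, each was represented by its transcript with the largest mean count, and all 8 were among the 13619 genes with enough reads to be tested. The study sequenced polyadenylated RNA of 4 kinds of progenitor sorted from bone marrow of C57BL/6, an inbred mouse strain, with 2 libraries each. CCR6+ cells, labelled as progenitors of lymphoid tissue inducer (LTi) cells, and PD-1+ cells, labelled as progenitors of other innate lymphoid cells (ILCs), were lineage-negative, CD127+, Flt-3-, integrin α4β7+, T1/ST2- and c-Kit+. CCR6+ cells lacked surface PD-1 and PD-1+ cells lacked surface CCR6. ChILP, the common helper-like progenitor of innate lymphoid cells, had the same gate without that split, and the common lymphoid progenitor (CLP) was lineage-negative, CD127+, Flt-3+, integrin α4β7-, Sca1+ and c-Kit+. CCR6+ and PD-1+ cells were first captured on magnetic columns through integrin α4β7, while ChILP and CLP were enriched by depleting lineage-positive cells. No transgene, deletion or treatment is named for any group, and the labels give no age, sex or number of mice.

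Lymphotoxin alpha, the product of Lta, is secreted as a homotrimer that binds the TNF receptors, or is held at the cell surface in a heterotrimer with lymphotoxin beta, the product of Ltb. The heterotrimer binds the lymphotoxin beta receptor on stromal cells, which then make adhesion molecules and chemokines, and LTi cells that carry it are required for the formation of lymph nodes. RANK ligand (Tnfsf11) and its receptor RANK (Tnfrsf11a) are needed for lymph nodes too, and in bone they drive the formation of osteoclasts. Signals from both receptors relieve the TRAF3-dependent destruction of the kinase NIK and so open the noncanonical NF-κB pathway.

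Lta, Tnf and Ltb lie side by side on mouse chromosome 17 inside the major histocompatibility complex, and Tnfsf14 lies elsewhere on the same chromosome. Promoters of the 3 genes that were called higher in CCR6+ cells than in CLP are shown, 250 bases before and 50 bases after the annotated start, from RefSeq on GRCm38.p6 and written along each gene's own strand. Ltb lies on the plus strand (chr17:35194257-35194556), and Lta (chr17:35205302-35205601) and Tnfsf14 (chr17:57194132-57194431) lie on the minus strand. Capitals mark a match to 1 of 5 motifs searched on both strands.
Ltb: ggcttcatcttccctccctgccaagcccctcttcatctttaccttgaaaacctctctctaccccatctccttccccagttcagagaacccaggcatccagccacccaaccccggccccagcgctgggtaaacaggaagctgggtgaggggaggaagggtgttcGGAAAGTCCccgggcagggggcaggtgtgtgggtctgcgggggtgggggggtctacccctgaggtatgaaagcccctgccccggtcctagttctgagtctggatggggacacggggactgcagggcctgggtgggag
Lta: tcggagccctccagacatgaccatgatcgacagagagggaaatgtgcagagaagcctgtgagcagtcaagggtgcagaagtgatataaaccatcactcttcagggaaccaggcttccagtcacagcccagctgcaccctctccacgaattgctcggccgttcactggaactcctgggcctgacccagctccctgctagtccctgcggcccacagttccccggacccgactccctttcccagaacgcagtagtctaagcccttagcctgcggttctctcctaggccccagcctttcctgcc
Tnfsf14: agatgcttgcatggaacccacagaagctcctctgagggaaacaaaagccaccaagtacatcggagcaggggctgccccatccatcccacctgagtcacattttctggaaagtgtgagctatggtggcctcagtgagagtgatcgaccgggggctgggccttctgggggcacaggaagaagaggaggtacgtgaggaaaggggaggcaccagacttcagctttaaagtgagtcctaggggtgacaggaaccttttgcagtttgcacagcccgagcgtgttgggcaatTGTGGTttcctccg
In the Ltb promoter the capitals mark a match to the NF-κB motif GGNNTTTCC, read on the opposite strand, whose first base lies at position -87 from the start. That motif was found in 5.82% of 32851 RefSeq mouse promoters of the same length, and among the 8 genes it was found in Ltb and Traf3. In the Tnfsf14 promoter the capitals mark the Runx motif TGTGGT, which was found in 16.8% of promoters. The Lta window held none of the motifs. The nuclear receptor half-site AGGTCA, the GATA motif AGATAA and the TCF-1 and LEF1 motif CTTTGA, found in 16.3%, 11.2% and 16.0% of promoters, were in none of the 8. A match is given as a description of the letters only.

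With 1 transcript counted per gene, libraries held 7685188 to 13997897 reads. Whether the 2 libraries of a population come from different mice is not stated, and p-values then measure only the spread between libraries, part or all of which may be technical. Levels are in RPKM, reads scaled by transcript length and by the library total, which allows genes to be compared per length. Markers that define the gates were mostly placed as labelled. Ccr6 stood at 84.2 and 23.6 RPKM in CCR6+ cells, 0 and 8.11 in PD-1+ cells, 3.84 and 8.21 in ChILP and 0 in both CLP libraries. Pdcd1, which encodes PD-1, stood at 0 and 1.10 RPKM in CCR6+ cells, 181 and 36.3 in PD-1+ cells, 70.9 and 92.8 in ChILP and 0.823 and 0.319 in CLP. PD-1+ replicate 2 carried 205 reads of Ccr6 and was closer to CCR6+ replicate 2 than to its own partner, with a chi-square per gene of 17.5 against 76.3, so values are also given without both libraries. Other libraries were closer to another group than to their partner too. CCR6+ replicate 2 stood at 38.2 from its partner, and PD-1+ replicate 1 at 73.1 from CCR6+ replicate 1. ChILP replicates 1 and 2 stood at 40.2 and 43.1 from CLP replicate 1 and at 62.5 from each other.

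Ltb was by far the most abundant of the 8 genes in each library. It stood at 363 and 267 RPKM in CCR6+ cells, 494 and 256 in PD-1+ cells, 149 and 262 in ChILP and 39.6 and 49.4 in CLP. All 6 libraries of the 3 ILC progenitor groups lay above both CLP libraries, and the group means ran from 375 ± 168 in PD-1+ cells through 315 ± 68.4 in CCR6+ cells and 205 ± 79.7 in ChILP to 44.5 ± 6.90 in CLP (mean ± SD, n = 2, as below). PD-1+ and CCR6+ libraries overlapped in that order, CCR6+ and ChILP libraries did not, and neither did ChILP and CLP libraries. By its mean, Ltb exceeded 98.96% of the 16044 genes with a read in at least 1 library in CCR6+ cells, 99.25% in PD-1+ cells, 98.14% in ChILP and 87.51% in CLP. Summed over the 5 ligands, RPKM came to 424 and 305 in CCR6+ cells, 527 and 287 in PD-1+ cells, 198 and 300.3 in ChILP and 57.0 and 64.2 in CLP. Ltb supplied 69.5% to 93.6% of that sum in every library.

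Lta was less abundant, and its levels were ordered differently. It stood at 17.7 and 11.0 RPKM in CCR6+ cells, 2.94 and 4.27 in PD-1+ cells, 2.41 and 4.59 in ChILP and 0.676 and 0.988 in CLP. Both CCR6+ libraries lay above the other 6, PD-1+ cells and ChILP overlapped, and both CLP libraries lay below the rest. Group means were 14.3 ± 4.70 RPKM in CCR6+ cells, 3.60 ± 0.945 in PD-1+ cells, 3.50 ± 1.54 in ChILP and 0.832 ± 0.221 in CLP. The CLP values rest on 10 and 20 reads, and those of CCR6+ cells on 261 and 222. RPKM of Lta and Ltb may include reads of the microRNA genes Mir6974 and Mir6973a, which overlap them, because the labels do not say whether counting used strand.

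The balance of Ltb to Lta within a library differed between the populations. The ratio of their RPKM was 20.6 and 24.2 in CCR6+ cells, 168 and 60.0 in PD-1+ cells, 61.6 and 57.0 in ChILP and 58.6 and 50.0 in CLP. Both CCR6+ libraries had a lower ratio than all of the other 6, and PD-1+ replicate 1 had the highest. Lta over Tnf, the other ligand gene of the cluster, was 1.12 and 0.843 in CCR6+ cells, 0.386 and 0.393 in PD-1+ cells, 0.102 and 0.557 in ChILP and 0.0824 and 0.150 in CLP. The ratios are descriptions of single libraries and were not tested.

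**Figure D1:**
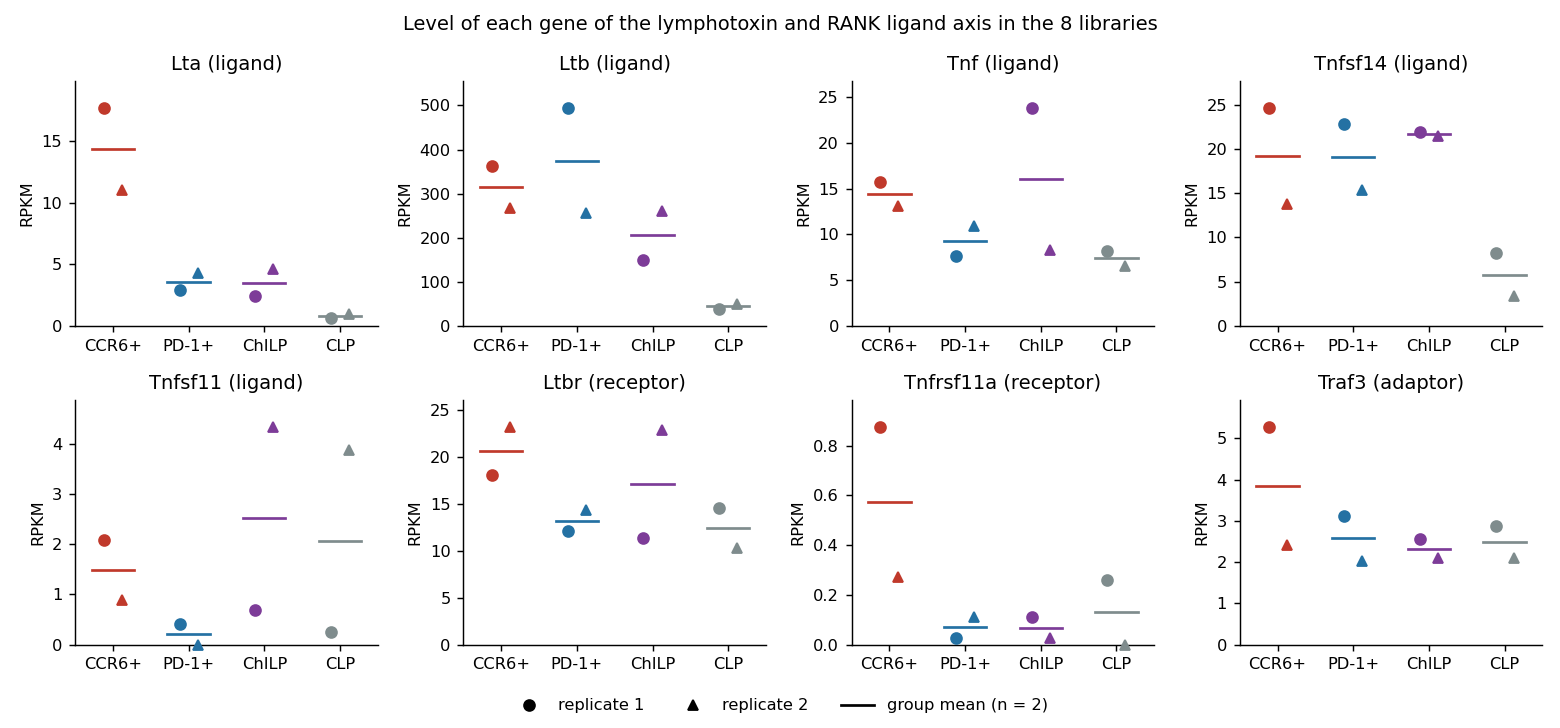
RPKM of each of the 8 genes (vertical axis, a linear scale of its own in each panel) in CCR6+, PD-1+, ChILP and CLP libraries, with circles and triangles for replicates 1 and 2 and a bar for the mean of 2 libraries. Lta stands at 17.7 and 11.0 in CCR6+ cells, above all other libraries, whereas Ltb is high in CCR6+, PD-1+ and ChILP libraries and at 39.6 and 49.4 in CLP.

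**Figure D2:**
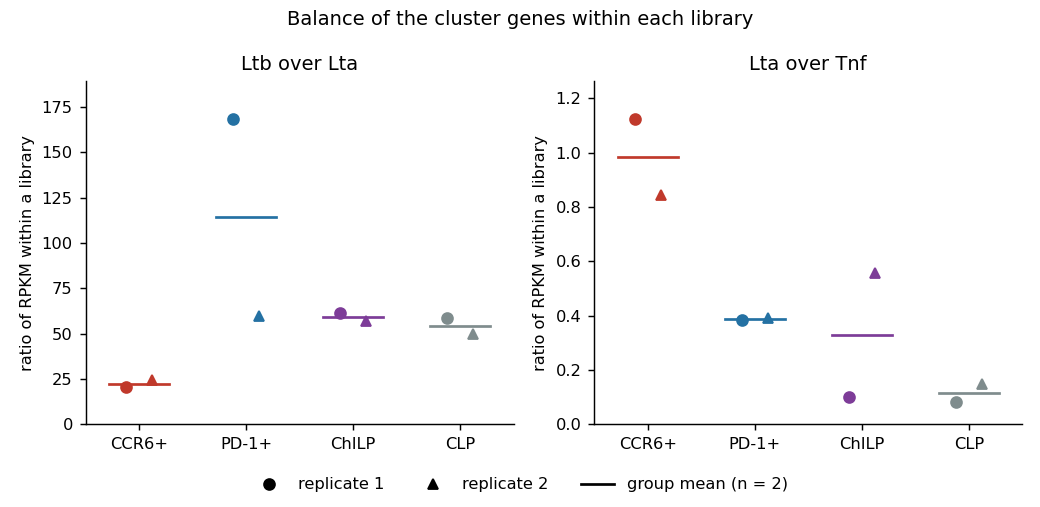
Ratio of RPKM within each library for Ltb over Lta (left) and Lta over Tnf (right), both on linear axes from 0, with symbols for replicates and a bar for the mean of 2 libraries. CCR6+ libraries have the lowest Ltb over Lta ratios, 20.6 and 24.2, and the highest Lta over Tnf ratios, 1.12 and 0.843.

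Tnfsf14, which encodes LIGHT, a further ligand of the lymphotoxin beta receptor that also binds HVEM, was low in CLP and similar among the other groups. It stood at 24.6 and 13.8 RPKM in CCR6+ cells, 22.9 and 15.3 in PD-1+ cells, 21.9 and 21.5 in ChILP and 8.26 and 3.35 in CLP. The 3 ILC progenitor groups overlapped one another and none overlapped CLP. Tnf, which encodes tumour necrosis factor, stood at 15.7 and 13.1 RPKM in CCR6+ cells, 7.61 and 10.9 in PD-1+ cells, 23.8 and 8.25 in ChILP and 8.20 and 6.59 in CLP. The highest Tnf value, that of ChILP replicate 1, was not shared by its partner, which stood at the level of the higher CLP library.

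Ltbr, the receptor of the lymphotoxin heterotrimer and of LIGHT, was present in all 8 libraries. It stood at 18.1 and 23.2 RPKM in CCR6+ cells, 12.1 and 14.4 in PD-1+ cells, 11.3 and 22.9 in ChILP and 14.6 and 10.3 in CLP, and each pair of neighbouring groups in the order of means overlapped. Both CCR6+ libraries lay above both PD-1+ and both CLP libraries. Traf3, the adaptor that restrains NIK, stood at 5.28 and 2.42 RPKM in CCR6+ cells, 3.13 and 2.02 in PD-1+ cells, 2.56 and 2.10 in ChILP and 2.88 and 2.10 in CLP, and all 4 groups overlapped. Traf3 has 2 transcripts in the tables that share reads, and it overlaps the gene 4930595D18Rik.

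Tnfrsf11a was the least abundant of the 8 genes by its mean RPKM in all 4 populations, and Tnfsf11 was low and varied widely within ChILP and CLP. Tnfsf11 stood at 2.09 and 0.890 RPKM in CCR6+ cells (50 and 29 reads), 0.400 and 0 in PD-1+ cells (13 and 0 reads), 0.686 and 4.35 in ChILP (28 and 150 reads) and 0.251 and 3.88 in CLP (6 and 127 reads). ChILP replicate 2 and CLP replicate 2 were high while their partners were low, so those groups each spanned the level of CCR6+ cells. The count of 0 in PD-1+ replicate 2 allows up to 0.0826 RPKM, the level of 3 counts, and covers counting error only. Tnfrsf11a stood at 0.875 and 0.273 RPKM in CCR6+ cells (47 and 20 reads), 0.0274 and 0.110 in PD-1+ cells (2 and 9 reads), 0.109 and 0.0258 in ChILP (10 and 2 reads) and 0.261 and 0 in CLP (14 and 0 reads). Both CCR6+ libraries lay above all others, although the lower of them exceeded CLP replicate 1 by a factor of 1.05, and the 0 in CLP replicate 2 allows up to 0.0408 RPKM. Tnfrsf11b, the decoy receptor osteoprotegerin that binds RANK ligand, had 0 reads in all 8 libraries.

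The first comparison of the study asked what changes between CLP and ChILP. Ltb, Tnfsf14, Lta and Tnf were higher in both ChILP libraries than in both CLP libraries, and none of the 8 genes passed the adjusted test. A gene was called where its p in edgeR's quasi-likelihood test, adjusted by the Benjamini-Hochberg method over every gene tested, was under 0.05. Of 13619 genes 3 were called, or 0.022%, and of the 8 genes 0. The log2 fold change of Ltb was 2.27 (SE 0.37, a 4.81-fold difference), with an unadjusted p of 0.000276 and an adjusted p of 0.0883 in edgeR. Without ChILP replicate 1 it was called, at an adjusted p of 0.0479 by edgeR, and the adjusted p was 0.243 without ChILP replicate 2, 0.239 without CLP replicate 1 and 0.613 without CLP replicate 2. Tnfsf14 had a log2 fold change of 1.93 (SE 0.51, adjusted p 0.358), Lta of 2.12 (SE 0.65, adjusted p 0.506) and Tnf of 1.16 (SE 0.54, adjusted p 0.901), all by edgeR. In bulk RNA, fewer cells that carry a transcript and less of it per cell cannot be told apart.

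That 4 of the 8 genes had higher values in both ChILP libraries than in both CLP libraries compares with 17% of all genes tested. At an unadjusted p under 0.05, Ltb, Tnfsf14 and Lta were higher in ChILP, against 2.79% of all genes higher at that level. DESeq2's Wald test called Ltb and Tnfsf14 and 2.01% of the 13090 genes to which it gave an adjusted p, and limma on log2(RPKM + 1) called Ltb alone of the 8. The median log2 fold change was 0.83 over the 8 genes and 0.05 over all genes tested. Log2 fold changes of the remaining genes were 0.50 for Ltbr (SE 0.40), 0.40 for Tnfsf11 (SE 1.75), -0.92 for Tnfrsf11a (SE 2.16) and -0.05 for Traf3 (SE 0.46).

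The second comparison set CCR6+ against PD-1+ cells, both captured on magnetic columns. Lta was the member with the smallest p, higher in CCR6+ cells by a log2 fold change of 2.04 (SE 0.62, a 4.11-fold difference), with an unadjusted p of 0.0113 and an adjusted p of 0.744 in edgeR. Without CCR6+ replicate 2 and PD-1+ replicate 2 together its log2 fold change was 2.79 (SE 0.87, adjusted p 0.219 in edgeR). Ltb differed by -0.17 (SE 0.35) and Tnfsf14 by 0.08 (SE 0.49) on the log2 scale in edgeR, and Tnfsf14 by -0.02 with limma on either RPKM scale. Tnfsf11, at 3.01 (SE 1.93), and Tnfrsf11a, at 3.05 (SE 2.29), had larger fitted differences on few reads, with adjusted p of 0.85 and 0.872 in edgeR. Without PD-1+ replicate 1 the difference of Tnfsf11 was 8.80 and without PD-1+ replicate 2 it was 2.02, and that of Tnfrsf11a ran from 1.97 without CCR6+ replicate 1 to 4.44 without PD-1+ replicate 2. On the same scale Ltbr differed by 0.70 (SE 0.40), Tnf by 0.69 (SE 0.53) and Traf3 by 0.66 (SE 0.46).

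In this comparison edgeR called 0 genes, or 0%, with a lowest adjusted p of 0.331 and 801 genes at an unadjusted p under 0.05, DESeq2 called 131, or 1.02% of 12826, limma called 2 on log2(RPKM + 1) and 0 on log2(RPKM + 0.1). Without PD-1+ replicate 2, edgeR called 36. None of the 8 genes was called by edgeR, DESeq2 or either limma setting. Lta, Ltbr, Tnf, Tnfsf11 and Tnfrsf11a, 5 of the 8, were higher in both CCR6+ libraries than in both PD-1+ libraries, against 14.2% of all genes tested. Only Lta of the 8 was higher at an unadjusted p under 0.05, against 1.81% of all genes. The median log2 fold change was 0.69 over the 8 genes and -0.01 over all genes.

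CCR6+ and PD-1+ cells were also set against CLP, the shared starting population, where the route of enrichment changes with the group and cannot be told apart from it. In CCR6+ cells Lta, Ltb and Tnfsf14 rose, 3 of the 8 genes, against 11.4% of all genes called in either direction. Of the 13619 genes tested, 897 were called higher. Lta rose by a log2 fold change of 4.43 (SE 0.70, a 21.6-fold difference, adjusted p 0.0109 in edgeR), and by 4.76 (SE 0.73) without both number 2 libraries of CCR6+ and PD-1+ cells. Ltb rose by 3.16 (SE 0.38, an 8.97-fold difference, adjusted p 0.00682 in edgeR) and Tnfsf14 by 2.04 (SE 0.51, a 4.11-fold difference, adjusted p 0.0414 in edgeR). Ltbr (1.05, SE 0.41, unadjusted p 0.0327), Tnf (1.29, SE 0.54), Tnfrsf11a (2.41, SE 2.23), Traf3 (0.95, SE 0.47) and Tnfsf11 (-0.08, SE 1.76, but 0.32 with limma on log2(RPKM + 0.1)) were not called, with adjusted p of 0.141 to 0.986 in edgeR. Counting both libraries of each group, 6 of the 8 genes were higher throughout in CCR6+ cells, all but Tnfsf11 and Traf3, against 19.8% of all genes. The median log2 fold change was 1.66 over the 8 genes and -0.09 over all.

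These calls depended on single libraries. By edgeR, Lta had an adjusted p of 0.0587 without CCR6+ replicate 1, 0.0519 without CLP replicate 1 and 0.0818 without CLP replicate 2. Ltb had an adjusted p of 0.0525 without CLP replicate 2. Tnfsf14 had an adjusted p of 0.174 without CCR6+ replicate 1, 0.056 without CCR6+ replicate 2, 0.176 without CLP replicate 2 and 0.0571 with only the 4 libraries compared. Without both number 2 libraries of CCR6+ and PD-1+ cells it was 0.053. Of all genes 1549 were called with every library, 459 without CCR6+ replicate 1, 655 without CCR6+ replicate 2, 770 without CLP replicate 1 and 83 without CLP replicate 2. Log2 fold changes of Lta stayed between 4.05 and 4.74 and those of Ltb between 2.91 and 3.38 over the libraries left out, whereas Tnfsf14 ranged more widely, from 1.48 with CLP replicate 2 left out to 2.92 with CLP replicate 1 left out.

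In PD-1+ cells Ltb rose against CLP, 1 of the 8 genes, against 7.31% of all genes called in either direction and 609 of 13619 called higher. The values of Ltb follow. Its log2 fold change was 3.33 (SE 0.38, a 10.1-fold difference, adjusted p 0.00992 in edgeR), and without CLP replicate 2 its adjusted p was 0.0812 and 8 genes in all were called in place of 995. Leaving out PD-1+ replicate 2 or CLP replicate 1 left 586 and 518 genes called, with Ltb at adjusted p of 0.00669 and 0.0306 in edgeR. Lta differed by 2.40 (SE 0.65, adjusted p 0.0646 in edgeR) and Tnfsf14 by 1.95 (SE 0.51, adjusted p 0.0581 in edgeR), and Tnfsf14 was called without CLP replicate 1, at 0.0386, but had an adjusted p of 0.247 without CLP replicate 2 and 0.124 without PD-1+ replicate 1 in edgeR. Log2 fold changes were -3.09 for Tnfsf11 (SE 1.93), -0.64 for Tnfrsf11a (SE 2.16), 0.36 for Ltbr (SE 0.41), 0.60 for Tnf (SE 0.53) and 0.30 for Traf3 (SE 0.46). That of Tnfsf11 rested on single libraries, at -8.87 without PD-1+ replicate 1 and -0.20 without CLP replicate 2, and that of Tnfrsf11a was 5.55 without CLP replicate 1. Lta, Ltb and Tnfsf14, 3 of the 8, were higher in both PD-1+ libraries than in both CLP libraries, against 18.6% of all genes, and the median log2 fold change was 0.48 over the 8 genes and -0.02 over all. The CLP libraries are shared by the 3 comparisons against CLP, so their results are not independent.

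The split of all called genes into higher and lower changed with the tool in both comparisons against CLP. By edgeR, 897 genes were higher and 652 lower in CCR6+ cells than in CLP, and 609 were higher and 386 lower in PD-1+ cells. With DESeq2 size factors in place of TMM, edgeR called 989 higher and 554 lower in CCR6+ cells and 642 higher and 350 lower in PD-1+ cells. On log2(RPKM + 1), with another filter and scaled by total reads alone, limma called 964 higher and 2150 lower in CCR6+ cells and 735 higher and 1412 lower in PD-1+ cells. The median log2 fold change of all genes on that scale was -0.36 in CCR6+ cells and -0.26 in PD-1+ cells against CLP. Lta, Ltb and Tnfsf14 were called higher in CCR6+ cells on both scales.

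**Figure D3:**
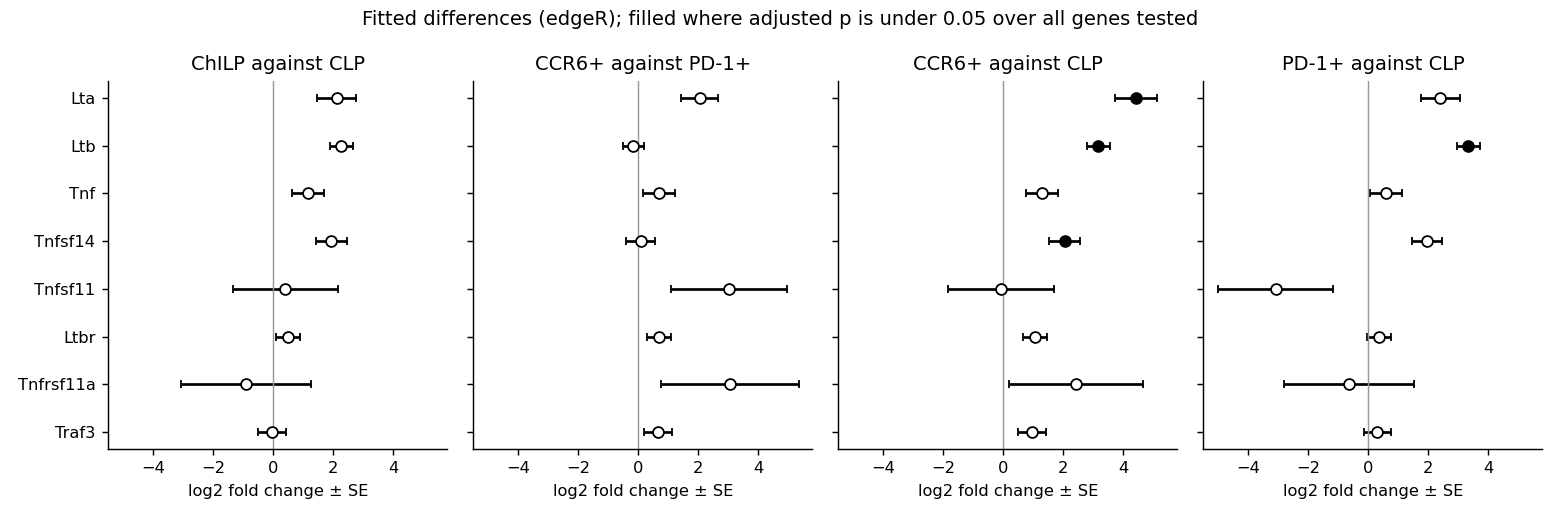
Log2 fold change with its SE (horizontal axis) for each of the 8 genes in the 4 comparisons named above the panels, first group over second, from edgeR. Filled points passed an adjusted p under 0.05, which holds for Lta, Ltb and Tnfsf14 in CCR6+ cells against CLP and for Ltb in PD-1+ cells against CLP.

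Transcripts of other marrow cells also separated the groups by route of enrichment, and their part in the results against CLP was not tested. Summed RPKM of 9 erythroid markers in replicates 1 and 2 was 79105.5 and 64439 in CCR6+ cells, 54955 and 63548 in PD-1+ cells, 11996 and 1905 in ChILP and 8769 and 1734 in CLP. Most of it came from globin genes, which may share reads, as Hba-a1 and Hba-a2 each had 182904 reads in CCR6+ replicate 1. Klf1 and Epor did not separate by route, with Epor at 59.6 and 51.7 RPKM in CCR6+ cells and 80.9 and 60.4 in ChILP. The sum of 6 early myeloid progenitor markers ran opposite to the erythroid sum, at 1139 to 1783 in CCR6+ cells, 752 to 1487 in PD-1+ cells, 8297 to 9730 in ChILP and 6889 to 6932 in CLP. Its markers did not all agree. Against CLP, edgeR called 3 of the 6 lower and 1 higher in CCR6+ cells, and 4 lower and 1 higher in PD-1+ cells. Csf3r stood at 30.1 and 49.6 RPKM in CCR6+ cells, 18.0 and 48.2 in PD-1+ cells and 9.33 and 9.08 in CLP. For neutrophil and monocyte markers, 12 of 13 present in the files and all 12 with reads in each library, the sums of replicates 1 and 2 were 21278 and 34304 in CCR6+ cells, 15805 and 31888 in PD-1+ cells, 6406 and 1406 in ChILP and 4933 and 1155 in CLP. Number 2 libraries thus had the higher sum in both captured groups and the lower sum in ChILP and CLP. For macrophage markers, 6 of 7 present, they were 785 to 855 in CCR6+ cells, 526 to 723 in PD-1+ cells, 68.2 to 157 in ChILP and 40.5 to 122 in CLP. B and T lymphocytes, which can carry lymphotoxin transcripts, were traced with lists of 8 and 7 markers. B cell markers summed to 326 to 340.1 RPKM in CCR6+ cells, 241 to 286 in PD-1+ cells, 25.3 to 65.8 in ChILP and 168 to 199 in CLP. T cell markers summed to 41.7 to 48.1 in CCR6+ cells, 30.1 to 51.8 in PD-1+ cells, 4.42 to 7.01 in ChILP and 7.19 to 14.1 in CLP. Reads were found for 5 to 8 of the B cell markers and 3 to 7 of the T cell markers per library.

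Bone cells are the best known source of RANK ligand and RANK in marrow, so their markers are given beside both genes. Summed RPKM of 9 marrow stroma and osteoblast markers was 33.5 and 24.8 in CCR6+ cells, 21.1 and 20.8 in PD-1+ cells, 286 and 33.6 in ChILP and 256 and 181 in CLP. Beside these sums Tnfsf11 stood at 2.09 and 0.890 RPKM in CCR6+ cells, 0.400 and 0 in PD-1+ cells, 0.686 and 4.35 in ChILP and 0.251 and 3.88 in CLP. The stroma and osteoblast sums rested on different genes. Col1a1, Col1a2 and Bglap stood at 176, 57.7 and 31.9 RPKM in ChILP replicate 1 and at 80.9, 30.1 and 45.8 in CLP replicate 2. In ChILP replicate 2 they stood at 0.427, 0.0756 and 0.543, and Cxcl12 stood at 22.9. Summed osteoclast markers, 4 of 5 present in the files, were 112 and 436 RPKM in CCR6+ cells, 109 and 240 in PD-1+ cells, 65.2 and 26.5 in ChILP and 39.7 and 23.9 in CLP. CCR6+ replicate 1 had the highest Tnfrsf11a, 0.875 RPKM, with an Acp5 level of 112 and 0 reads of Ctsk and Oscar. CCR6+ replicate 2 had a Tnfrsf11a level of 0.273, an Acp5 level of 312, a Ctsk level of 122 and an Oscar level of 2.19. The last marker, Calcr, had 0 reads in all 8 libraries, and the part of bone cells in the levels of Tnfsf11 and Tnfrsf11a was not tested. Ctsk encodes cathepsin K, the bone matrix protease of osteoclasts.

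**Figure D4:**
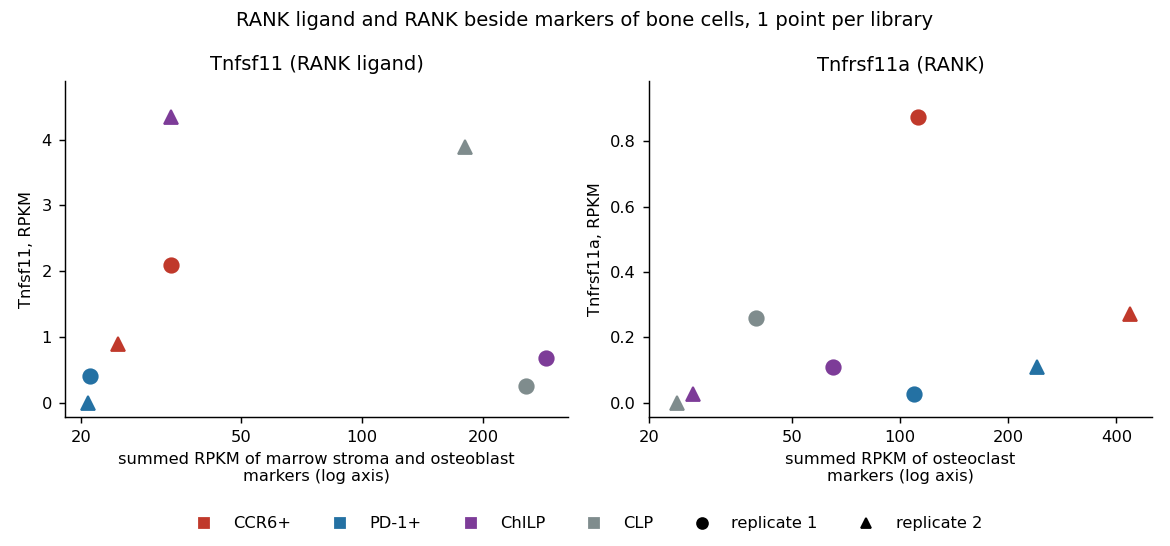
Tnfsf11 RPKM against the summed RPKM of marrow stroma and osteoblast markers (left) and Tnfrsf11a RPKM against that of osteoclast markers (right), with 1 point per library, linear vertical and logarithmic horizontal axes. The 2 highest Tnfsf11 values, 4.35 in ChILP replicate 2 and 3.88 in CLP replicate 2, lie at marker sums of 33.6 and 181, and the highest Tnfrsf11a value, 0.875 in CCR6+ replicate 1, at 112. Of the sum of 33.6, Cxcl12 supplied 22.9.

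Downstream genes of the axis were described through lists of pathway genes. Of all genes tested, 11.4% were called in either direction in CCR6+ cells against CLP and 7.31% in PD-1+ cells against CLP. The counts of each list are set beside these shares. Of 8 noncanonical NF-κB genes, 2 rose in CCR6+ cells against CLP, Relb and Nfkb2, which encode the subunits of the dimer that this pathway releases. Relb stood at 25.6 and 14.0 RPKM in CCR6+ cells, 6.63 and 15.4 in PD-1+ cells, 8.16 and 11.3 in ChILP and 3.48 and 4.35 in CLP. Its log2 fold change in CCR6+ cells against CLP was 2.68 (SE 0.53, adjusted p 0.0211 in edgeR). Nfkb2 stood at 17.1 and 21.5 RPKM in CCR6+ cells, 7.77 and 20.3 in PD-1+ cells, 10.9 and 12.3 in ChILP and 6.76 and 6.24 in CLP, with a log2 fold change of 1.90 (SE 0.46, adjusted p 0.038 in edgeR) in CCR6+ cells against CLP. In both genes the number 2 library of PD-1+ cells was at the level of CCR6+ cells and its partner was not. By edgeR, without CCR6+ replicate 1, CLP replicate 1 or CLP replicate 2 the adjusted p of Relb was 0.0897, 0.0878 and 0.124 and that of Nfkb2 was 0.0902, 0.111 and 0.206, and without CCR6+ replicate 2 that of Nfkb2 was 0.121. The list had a median log2 fold change of 0.75 beside -0.09 over all genes. In PD-1+ cells against CLP edgeR called 0 of the 8, with 2 at an unadjusted p under 0.05, Relb at 1.80 (SE 0.52) and Nfkb2 at 1.41 (SE 0.46), and 2 called by DESeq2.

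Of 19 canonical NF-κB genes and other TRAF adaptors, 2 rose and 1 fell in CCR6+ cells against CLP, a share near the 11.4% of all genes called. Tab2, an adaptor of the kinase TAK1, rose by 1.76 (SE 0.30, adjusted p 0.0134 in edgeR) and Traf1, an adaptor induced by NF-κB, by 3.58 (SE 0.77, adjusted p 0.0268 in edgeR), while Traf4 fell by 1.12 (SE 0.26, adjusted p 0.0323 in edgeR). In PD-1+ cells against CLP, Tab2 rose by 1.41 (SE 0.30, adjusted p 0.032 in edgeR) and Traf4 fell by 1.10 (SE 0.26, adjusted p 0.043 in edgeR). Without CLP replicate 2, edgeR gave adjusted p of 0.112 for Tab2, 0.124 for Traf1 and 0.118 for Traf4 in CCR6+ cells, and of 0.217 for Tab2 and 0.149 for Traf4 in PD-1+ cells. Without CCR6+ replicate 1 they were 0.0615 for Tab2, 0.0917 for Traf1 and 0.14 for Traf4 in CCR6+ cells. The medians of the list were 0.42 and 0.37 in these comparisons, beside -0.09 and -0.02 over all genes. Of 10 other TNF superfamily ligands tested, 1 rose in both groups, near the 11.4% and 7.31% of all genes called in either direction. This was Tnfsf13, which encodes APRIL, a survival factor of plasma cells. It stood at 24.3 and 25.3 RPKM in CCR6+ cells, 16.6 and 18.0 in PD-1+ cells, 7.47 and 4.90 in ChILP and 3.23 and 2.77 in CLP, so that it was lowest in CLP throughout. Against CLP it rose by 3.37 (SE 0.37, adjusted p 0.00586 in edgeR) in CCR6+ cells and by 2.80 (SE 0.37, adjusted p 0.0106 in edgeR) in PD-1+ cells, with adjusted p of 0.0511 and 0.0824 without CLP replicate 2.

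Of 19 other TNF superfamily receptors tested, 2 rose and 1 fell in CCR6+ cells against CLP, and 1 rose and 1 fell in PD-1+ cells against CLP, shares near the 11.4% and 7.31% of all genes called. Tnfrsf25, which encodes DR3, rose by 4.15 (SE 0.93, adjusted p 0.0298 in edgeR) in CCR6+ cells and by 3.88 (SE 0.92, adjusted p 0.0451 in edgeR) in PD-1+ cells. Tnfrsf1b, which encodes TNF receptor 2, rose in CCR6+ cells by 2.06 (SE 0.46, adjusted p 0.03 in edgeR). Cd27, a costimulatory receptor carried by lymphoid progenitors, fell by 3.18 (SE 0.43, adjusted p 0.00795 in edgeR) in CCR6+ cells and by 1.65 (SE 0.40, adjusted p 0.048 in edgeR) in PD-1+ cells. Its levels were 10.5 and 9.53 RPKM in CCR6+ cells, 43.2 and 18.4 in PD-1+ cells, 37.2 and 39.4 in ChILP and 77.4 and 155 in CLP, without overlap between CCR6+ cells and any other group. By edgeR in CCR6+ cells against CLP, Tnfrsf1b was no longer called when either CCR6+ library or CLP replicate 2 was left out. Tnfrsf25 was no longer called when either CCR6+ library was left out, and Cd27 when CLP replicate 2 was. In PD-1+ cells against CLP, Tnfrsf25 was no longer called by edgeR when any 1 of the libraries compared was left out. Cd27 was no longer called when PD-1+ replicate 2 or CLP replicate 2 was left out.

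**Figure D5:**
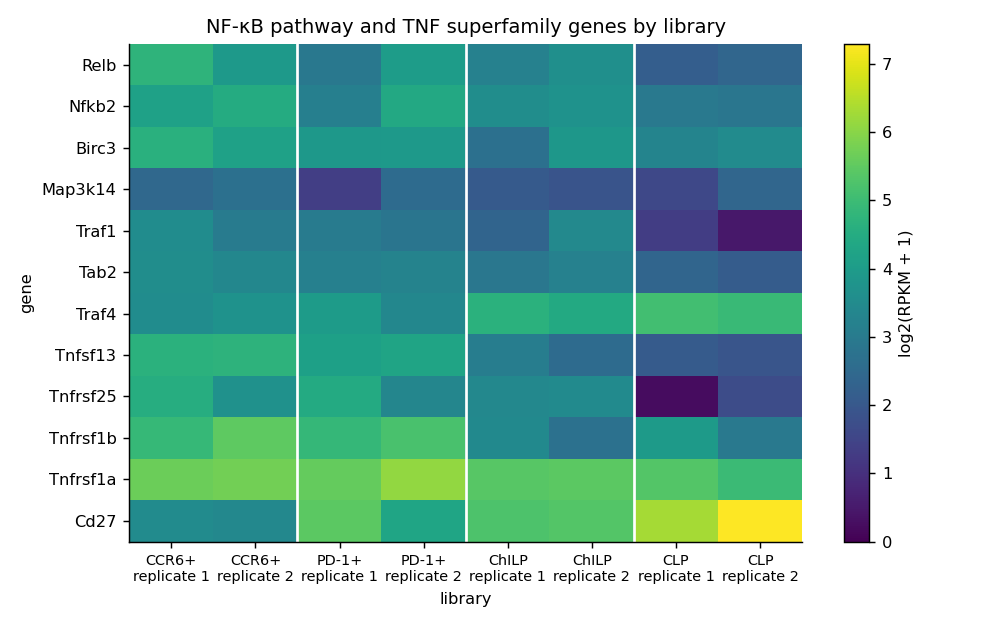
Level of 12 NF-κB pathway and TNF superfamily genes in the 8 libraries as log2(RPKM + 1), from dark (0) to yellow (highest), with white lines between groups. Relb stands at 25.6 and 14.0 RPKM in CCR6+ cells and 3.48 and 4.35 in CLP, and Cd27 runs the other way, at 10.5 and 9.53 RPKM in CCR6+ cells and 77.4 and 155 in CLP.

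Genes that the ligands induce in stroma had few reads in these cells, apart from Icam1 and Vcam1. Cxcl13, Ccl19, Ccl21a, Glycam1 and Ccl20 had 0 reads in all 8 libraries, and of the 3 of 8 such genes tested Vcam1 rose in CCR6+ cells against CLP, by 2.57 (SE 0.59, adjusted p 0.0317 in edgeR). Vcam1 is also a macrophage marker and stood at 81.7 and 51.0 RPKM in CCR6+ cells, 43.7 and 41.4 in PD-1+ cells, 27.4 and 9.27 in ChILP and 19.3 and 8.43 in CLP. In PD-1+ cells against CLP edgeR called 0 of the 3, with Vcam1 at 1.86 (SE 0.57, unadjusted p 0.012) and Icam1 at 0.99 (SE 0.35, unadjusted p 0.022), and DESeq2 called 1. Of 9 osteoclast genes downstream of RANK tested, Acp5 (3.05, SE 0.66) and Fos (3.13, SE 0.44) rose in CCR6+ cells and Fos (3.05, SE 0.44) rose in PD-1+ cells, against CLP. Both are expressed in myeloid cells. Of the marker sums given above, those of neutrophils and monocytes and of macrophages also stood higher in these groups. That of early myeloid progenitors stood lower. The part of myeloid cells in this result was not tested. Without CLP replicate 2 the edgeR adjusted p in CCR6+ cells was 0.162 for Vcam1, 0.163 for Acp5 and 0.0762 for Fos. Of 13 LTi and ILC3 genes tested, 7 rose in CCR6+ cells (Ccr6, Cxcr5, Il23r, Nrp1, Cd4, Id2 and Tcf7) and 6 in PD-1+ cells (Cxcr5, Nrp1, Cd4, Id2, Tcf7 and Tox), with medians of 3.31 and 3.70 beside -0.09 and -0.02 over all genes. Ccr6 encodes the receptor on which CCR6+ cells were sorted, so its rise in these cells is not a result apart from the gate. Nrp1 and Cd4 were higher in every library captured on magnetic columns than in every ChILP and CLP library. Ccr6, Cxcr5, Il23r, Id2, Tcf7 and Tox were not. The part of the route of enrichment and of other marrow cells in the rise of these genes was not tested. Ccr6 and Il23r had 0 reads in both CLP libraries, and with both held at the bound set by 3 counts per library the median in PD-1+ cells was 2.57, while in CCR6+ cells it was again 3.31. Of the 19 pathway genes called in CCR6+ cells against CLP, 7 were still called without CCR6+ replicate 1, 9 without CCR6+ replicate 2, 11 without CLP replicate 1 and 2, Nrp1 and Tnfrsf25, without CLP replicate 2. Of the 12 called in PD-1+ cells against CLP, 11 were still called without PD-1+ replicate 1, 7 without PD-1+ replicate 2, 6 without CLP replicate 1 and 0 without CLP replicate 2.

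In ChILP against CLP edgeR called 0 of the 80 pathway genes tested, with 19 at an unadjusted p under 0.05, DESeq2 called 7, and limma called 2 on each of log2(RPKM + 1) and log2(RPKM + 0.1). Over all genes 5.82% were at that unadjusted p and DESeq2 called 2.01%. Among them, by edgeR, Traf1 differed by 2.92 (SE 0.75, unadjusted p 0.00478), Tab2 by 0.99 (SE 0.30, unadjusted p 0.00995), Relb by 1.37 (SE 0.51, unadjusted p 0.028), Tnfsf13 by 1.10 (SE 0.35, unadjusted p 0.0141), Tnfrsf25 by 3.08 (SE 0.90, unadjusted p 0.00896) and Cd27 by -1.53 (SE 0.40, unadjusted p 0.00508). Further values on the log2 scale were -2.34 for Tnfrsf13c (SE 0.78), the BAFF receptor, -0.77 for Nfkbie (SE 0.26), an inhibitor of NF-κB, and 1.95 for Itgb3 (SE 0.82). LTi and ILC3 genes with the smallest p there were Tcf7 at 6.64 (SE 0.86), Id2 at 3.38 (SE 0.48) and Cxcr5 at 4.32 (SE 0.90). In CCR6+ against PD-1+ cells edgeR again called 0 of them, with 9 at an unadjusted p under 0.05, against 5.88% of all genes, DESeq2 called 2, against 1.02% of all genes, and both limma settings called 0. Values there were -1.53 for Cd27 (SE 0.41, unadjusted p 0.00551 in edgeR) and, for Tnfrsf21, which encodes DR6, 1.01 (SE 0.30, unadjusted p 0.00986 in edgeR). Map3k7, which encodes TAK1, differed by -1.57 (SE 0.58), Tcf7 by -3.02 (SE 0.70), Tox by -2.82 (SE 0.70) and Il2ra by 4.34 (SE 1.57). No noncanonical NF-κB gene reached an unadjusted p under 0.05 there.

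The genes most like Lta, Ltb and Tnfsf11 over the 8 libraries were found by Pearson's r of log2(RPKM + 1) among genes with a mean of at least 5 RPKM, as a description of these libraries, which share groups and routes of enrichment. For Lta they were Tmem38b (r = 0.969), Fkbp15 (r = 0.951) and Relb (r = 0.942) among 7931 genes. For Ltb they were Ckb (r = 0.986), Fam129a (r = 0.982) and Lpxn (r = 0.979). Ckb, the brain-type creatine kinase, stood at 109 and 75.8 RPKM in CCR6+ cells, 105 and 66.3 in PD-1+ cells, 25.6 and 53.7 in ChILP and 4.30 and 3.47 in CLP. For Tnfsf11 they were Fbxw2 (r = 0.957), Rela (r = 0.926) and Tubgcp2 (r = 0.909) among 7932 genes. Over the 8 libraries Fbxw2 ran from 27.4 to 37.6 RPKM, Rela from 38.1 to 62.6 and Tubgcp2 from 13.4 to 26.5.

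Genes on either side of the cluster did not all follow it. Lst1, a leukocyte-specific gene next to Ltb, stood at 202 and 235 RPKM in CCR6+ cells, 132 and 193 in PD-1+ cells, 46.3 and 49.1 in ChILP and 46.7 and 32.7 in CLP. Aif1, a macrophage gene beyond it, stood at 40.3 and 41.2 RPKM in CCR6+ cells, 23.1 and 42.3 in PD-1+ cells, 3.38 and 6.66 in ChILP and 4.49 and 4.61 in CLP. Both were higher in the groups captured on magnetic columns, and ChILP and CLP overlapped for both, whereas Ltb was high in ChILP as well. On the side of Lta, Nfkbil1 stood at 13.5 and 12.7 RPKM in CCR6+ cells, 32.4 and 7.66 in PD-1+ cells, 20.9 and 13.7 in ChILP and 19.8 and 28.2 in CLP, an order that Lta did not have.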

How the data were processed

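Per the labels' protocols, cells were lysed straight after sorting, and Smart-seq2 libraries, made by amplifying polyadenylated RNA of small samples, were read over 50 bp. CASAVA 1.8.4, Bowtie2 2.2.2 and mm9 appear in the submitters' processing notes without a role, and the counter and its strand setting are not named. For each of 29257 RefSeq transcripts the authors deposited a whole-number read count, a length and an RPKM value, which equals the count over length and over 1 total per library. No molecular identifiers are named, so floors cover counting error only.

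Of 22878 symbols 4019 have several transcripts; the one with the largest mean count stood for the gene. Its choice differs from the longest transcript for 531 symbols, none of them among the 8 genes. The deposited counts of all 4 groups entered 1 edgeR 4.0.16 fit (R 4.3.3; TMM, filterByExpr at 10 counts, robust quasi-likelihood, two-sided, Benjamini-Hochberg), whose common coefficient of variation was 0.526 on 4 residual degrees of freedom. The edgeR fit, and not the other steps, was tested on simulated counts with known changes. Levels and ratios use the deposited RPKM. Alternatives were DESeq2 1.42.0 (size factors alone, or its Wald test), limma 3.58.1 on log2(RPKM + 1) or log2(RPKM + 0.1) for genes reaching 1 RPKM in 2 libraries, dropping the filter, raising it to 5 RPKM, fitting only the groups compared, the longest transcript, a replicate block, and each library left out, which assumes that a lone library varies as other groups do. Named genes are the 8, each pathway list's called members or, with none called, up to 3 with the lowest unadjusted p under 0.05, and the 3 genes most like Lta, Ltb and Tnfsf11. One gene of the lists is not reported here. Members, lists and comparisons were chosen with earlier results of these data known. Promoters are from RefSeq on GRCm38.p6, which is not the build of the deposited tables.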

Additional observations from a re-analysis of the deposited data

How the results depend on the processing

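Counts of called genes moved with the tool and the library set. In ChILP against CLP, 3 genes were called, but 0 with DESeq2 size factors, 263 by the DESeq2 Wald test, 55 and 46 by limma on log2(RPKM + 1) and log2(RPKM + 0.1), 63 with no filter, 15 with the filter of 5 RPKM, 59 with only the 4 libraries compared and 0 to 24 without 1 library. Of the 8 genes, 0 were called there, but 2 by the DESeq2 Wald test, 1 by limma on log2(RPKM + 1), 1 with no filter and 0 to 1 without 1 library. In CCR6+ against PD-1+ cells, 0 genes were called, but 131 by DESeq2, 2 by limma on log2(RPKM + 1), 0 to 36 without 1 library and 5 without both number 2 libraries, an alternative chosen after seeing the data. In CCR6+ cells against CLP, 1549 genes were called, but 2768 by DESeq2, 3114 and 2797 by limma and 83 to 770 without 1 library, and 0 to 2 of the 8 genes without 1 library in place of 3. In PD-1+ cells against CLP, 995 genes were called, but 2288 by DESeq2, 2147 and 1870 by limma, 208 with only the 4 libraries compared, 414 without both number 2 libraries and 8 to 815 without 1 library. Of the 8 genes, 1 was called there, but 3 by DESeq2, 2 and 3 by limma, 2 with no filter, 3 with the filter of 5 RPKM and 0 to 2 without 1 library. The cause of these moves was not tested, except that fewer libraries leave fewer residual degrees of freedom.

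Reversals touched only differences that were not called. Without 1 library, log2 fold changes in ChILP against CLP ran between -0.10 and 0.93 for Ltbr, -1.48 and 3.29 for Tnfsf11, -2.25 and 5.27 for Tnfrsf11a and -0.32 and 0.28 for Traf3. In CCR6+ against PD-1+ cells they ran between -0.51 and 0.31 for Ltb, -0.40 and 0.45 for Tnfsf14 and -0.0222 and 1.12 for Traf3, and Tnfsf14 stood at -0.0207 with limma on log2(RPKM + 1) and -0.0232 on log2(RPKM + 0.1). In CCR6+ cells against CLP Tnfsf11 ran between -0.97 and 2.81 without 1 library and stood at 0.32 with limma on log2(RPKM + 0.1) and 0.42 without both number 2 libraries. In PD-1+ cells against CLP Tnfrsf11a ran between -2.03 and 5.55 without 1 library. Of 418 recomputed fold changes of the 8 genes, 372 kept their direction and their side of the threshold. Most of these belong to differences that were not called with every library, so that keeping the side means again not called. Of the others, 10 lost a call, 15 gained a call and 21 changed direction. The calls themselves depended on single libraries, as given above.

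Libraries with the same number were not treated as pairs, since their deviations correlated at -0.106 to 0.094 over 13619 genes, although neutrophil and monocyte marker sums moved with the number within each route of enrichment. The correlation was 0.08 for CCR6+ with PD-1+ cells and 0.094 for ChILP with CLP. Between the routes it was -0.106 to -0.009. The replicate block fits 1 effect of the number for both routes, so it cannot represent moves that differ by route. With the replicate block, edgeR called 0 genes in ChILP against CLP, 632 genes and 2 of the 8 in PD-1+ cells against CLP, and the log2 fold changes of Tnfsf11 in CCR6+ cells and Tnfrsf11a in PD-1+ cells against CLP were 0.25 and 0.77. Of the 19 pathway genes called in CCR6+ cells against CLP 16 were still called with the block, all but Tnfrsf25, Ccr6 and Il23r (adjusted p 0.0552 to 0.0758 in edgeR), and of the 12 in PD-1+ cells 8, all but Tab2, Traf4, Tnfrsf25 and Cd27 (0.0557 to 0.0813). With only the 4 libraries compared, all 19 were still called in CCR6+ cells. In PD-1+ cells 5 of the 12 were, namely Fos, Id2, Nrp1, Tcf7 and Tnfsf13. Tnfsf11 and Tnfrsf11a have 0 to 150 and 0 to 47 reads per library and SEs of 1.75 to 2.29.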

Other observations

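Tnfrsf1a and Tnfrsf14, which encode other receptors that ligands of the axis can bind, had reads in all 8 libraries, unlike Tnfrsf11b. Which cells of the bulk libraries carried them was not tested. The genes named here were chosen from the lists after their values were seen. Tnfrsf1a, which encodes TNF receptor 1, stood at 49.3 and 51.9 RPKM in CCR6+ cells, 46.3 and 67.5 in PD-1+ cells, 41.2 and 42.6 in ChILP and 39.1 and 30.4 in CLP. Its level exceeded that of Ltbr in every library. Tnfrsf14, which encodes HVEM, a receptor of LIGHT, stood at 40.1 and 16.6 RPKM in CCR6+ cells, 19.0 and 18.2 in PD-1+ cells, 14.2 and 12.9 in ChILP and 18.2 and 10.8 in CLP, with only CCR6+ replicate 1 set apart. Neither gene was called by edgeR in any of the 4 comparisons, with adjusted p of 0.0668 to 1 for Tnfrsf1a and 0.155 to 1 for Tnfrsf14. Map3k14, which encodes NIK, the kinase that TRAF3 restrains, stood at 4.55 and 5.49 RPKM in CCR6+ cells, 1.53 and 4.85 in PD-1+ cells, 3.20 and 2.69 in ChILP and 1.97 and 4.27 in CLP. Cd40, a receptor of B cells and myeloid cells that also uses TRAF3, stood at 15.8 and 15.4 RPKM in CCR6+ cells, 5.17 and 14.7 in PD-1+ cells, 0.921 and 0 in ChILP and 1.05 and 0 in CLP. Its log2 fold change in CCR6+ cells against CLP was 5.23 (SE 1.76, adjusted p 0.0974 in edgeR), and summed B cell markers were 326 to 340.1 RPKM in CCR6+ cells and 168 to 199 in CLP; their part in it was not tested.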
